A study of Mus musculus with 5 samples.

Results

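The transcripts described here encode the neuronal cytoskeleton: the neurofilament subunits Nefl, Nefm and Nefh and their partner Ina (alpha-internexin), the neuronal beta-tubulin Tubb3, the microtubule-associated proteins Map2, Mapt (tau), Map1a and Map1b, and the growth cone protein Gap43. These 10 genes were taken by name from a table of 26369 genes, and all 10 passed the filter on low counts. Of these, 7 matched by symbol. Map2, Map1a and Map1b stand in the table under the older symbols Mtap2, Mtap1a and Mtap1b and were matched by Ensembl identifier. RNA came from the striatum of R6/1 mice (n = 2 libraries) and of wild-type mice (WT, n = 3 libraries), all on a mixed background of equal CBA and C57BL/6 parts. R6/1 mice carry a transgene of exon 1 of the Huntington's disease gene with a CAG expansion, given as 115 in the labels, and WT mice carry none. The labels used here state no age, sex or litter. They do not say that each library is a different mouse, so each p-value measures only how these libraries spread, and that spread may be technical.

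Neurofilaments are the intermediate filaments of axons. They are built from a light, a medium and a heavy subunit together with alpha-internexin, and in large axons they set the calibre. Microtubules are polymers of alpha- and beta-tubulin. Map2 binds them mainly in dendrites and cell bodies, tau mainly in axons, and Map1a and Map1b along both, with Map1b prominent in growing and Map1a in mature neurons. Gap43 lies under the membrane of growth cones and axon endings. The striatum consists mostly of medium spiny neurons, whose own axons are thin, and it is crossed by bundles of thicker axons from the cortex.

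Total counts were 34379064 and 29871306 in R6/1 replicates 1 and 2, and 19630036 to 23046266 in the WT libraries, so each R6/1 library was deeper than each WT library. Over all genes, 3882 of 17202 were called by edgeR's quasi-likelihood test at a Benjamini-Hochberg adjusted p below 0.05, which is 22.6% of genes tested, with 2210 lower and 1672 higher in R6/1. Lower genes made up 56.9% of these calls, but 34.3% when counts were scaled to the library total alone, a setting that moved the median log2 fold change of all genes to 0.11. As for the labelled tissue, 10 of 10 medium spiny neuron markers were counted in every library, and all 10 were called lower in R6/1, with a summed level of 1852 and 1916 CPM (counts scaled to the library total, TMM-normalized) against 6389 to 7352 CPM in WT. Choroid plexus RNA stood high in WT replicates 1 and 2, where 8 markers summed to 3647 and 3559 CPM, against 97.6 CPM in WT replicate 3 and 126 and 46.4 CPM in R6/1 replicates 1 and 2. Results are therefore also given without WT replicates 1 and 2.

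Promoter sequence was on hand from RefSeq (GRCm38.p6) for 5 of the 10 genes, Tubb3, Map2, Map1a, Map1b and Ina. Tubb3 is shown as the gene of these 5 that was called, and Map2 as the most abundant one, which was not. Each window runs from 250 bases before to 50 bases after the annotated start, 5′ to 3′ on the gene's strand, and capitals mark matches to motifs searched on both strands. The Tubb3 window is chr8:123411303-123411602 (+) and the Map2 window chr1:66175079-66175378 (+).
Tubb3: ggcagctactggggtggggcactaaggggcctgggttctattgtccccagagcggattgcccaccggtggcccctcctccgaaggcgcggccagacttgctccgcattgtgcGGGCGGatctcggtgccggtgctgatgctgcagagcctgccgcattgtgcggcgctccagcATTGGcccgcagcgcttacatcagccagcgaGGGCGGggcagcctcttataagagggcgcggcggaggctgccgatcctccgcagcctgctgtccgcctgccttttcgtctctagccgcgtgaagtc
Map2: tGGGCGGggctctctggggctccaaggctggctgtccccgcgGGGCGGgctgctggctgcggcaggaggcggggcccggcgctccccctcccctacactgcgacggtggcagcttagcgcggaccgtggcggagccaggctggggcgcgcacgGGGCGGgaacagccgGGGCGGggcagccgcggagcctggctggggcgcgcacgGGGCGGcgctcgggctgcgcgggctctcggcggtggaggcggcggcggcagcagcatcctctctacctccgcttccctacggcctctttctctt
The motifs were the GC box GGGCGG, the CCAAT box with just those letters, the TATA box TATAAA, the E-box CACGTG and the cAMP response element TGACGTCA, none of which overlapped another in these windows. Tubb3 had 2 GC boxes and 1 CCAAT box, and Map2 had 5 GC boxes, with none of the other motifs in either window. A GC box occurred in 35.7% and a CCAAT box in 37.4% of the 32851 promoter windows in the table. These matches are letters in the reference sequence and were not tested for binding.

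Of the 10 transcripts, Tubb3 fell in R6/1 striatum, Gap43 rose, and 8 were not called. The share called was 20.0%, near the 22.6% of all genes. By direction, 1 of 10 was lower, against 12.8% of all genes, and 1 of 10 higher, against 9.72%. At an unadjusted p below 0.05, 2 were lower (Nefm and Tubb3) and 2 higher (Mapt and Gap43). The share of all genes at that unadjusted threshold was not counted, and it cannot be under the 22.6% called after adjustment. These counts, and those at an unadjusted p given later, therefore show nothing particular to the genes counted. Log2 fold changes (R6/1 over WT) were above 0 for 7 genes and below 0 for 3, and their median was 0.14, against -0.0079 over all genes tested. The median size of change was 0.22 on the log2 scale for the 10 genes and 0.27 over all genes tested, and it was 0.20 over the 6161 genes at least as abundant as Nefh, of which 30.6% were called. In 5 of the 10 genes the R6/1 and WT libraries did not overlap, against 54.1% of all genes tested. R6/1 lay below WT in 2 of them, against 26.9% of all genes, and above WT in 3, against 27.2%.

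**Figure D1:**
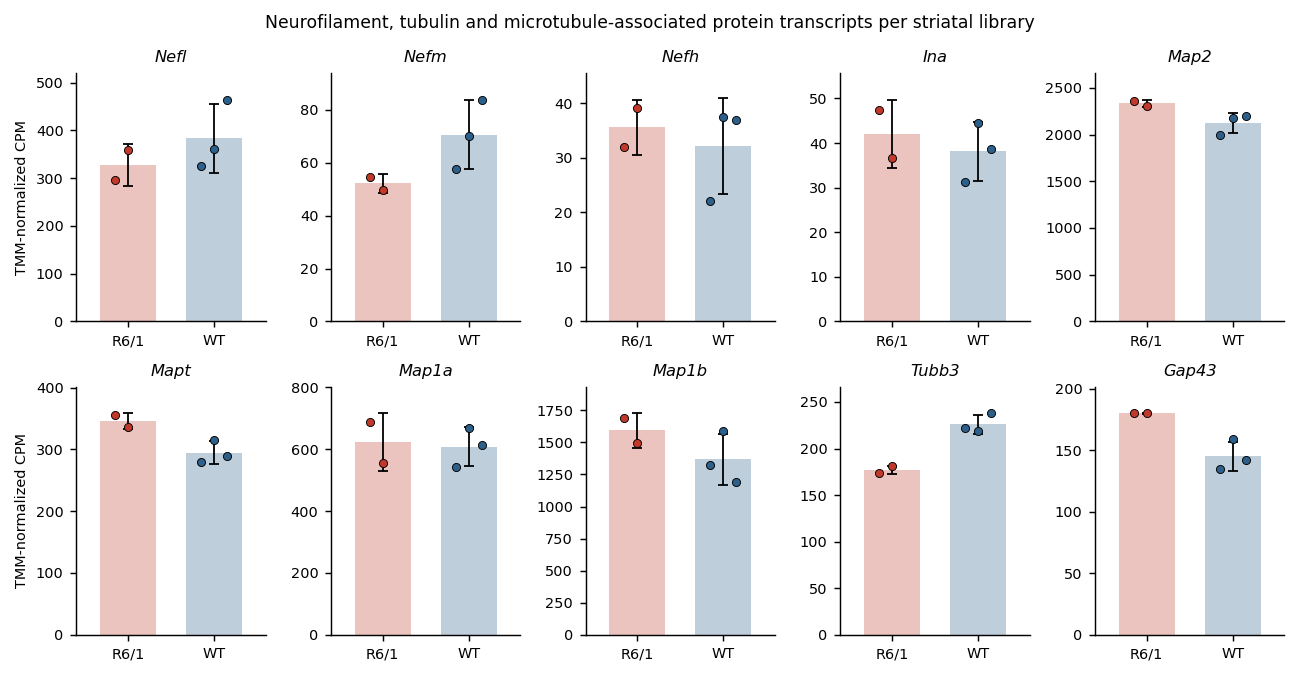
TMM-normalized CPM (y axis, from 0) of each of the 10 transcripts in R6/1 (red, n = 2) and WT (blue, n = 3) libraries, where points are libraries, bars are means and error bars are SD. The R6/1 points of Tubb3 and Nefm lie under all WT points and those of Gap43, Mapt and Map2 over them, and the groups overlap for 5 genes.

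Tubb3 (ENSMUSG00000062380, class III beta-tubulin, the isotype used as a general marker of neurons) was the member that fell. It was at 174 and 181 CPM in R6/1 replicates 1 and 2, against 222, 219 and 238 CPM in WT replicates 1 to 3. Both R6/1 libraries lay below every WT library. The mean was 177 ± 4.67 CPM in R6/1 and 226 ± 10.1 CPM in WT (SD, n = 2 and 3), a 1.28-fold fall with a log2 fold change of -0.35 (SE 0.07, 95% interval -0.51 to -0.19, edgeR adjusted p = 0.0136). The authors' deposited table gives a log2 fold change of -0.33 with an adjusted p of 3.65e-06. Without R6/1 replicate 1 or 2 the value was -0.32 or -0.38 and the call was lost (edgeR adjusted p = 0.109 and 0.0812). It was kept in 11 of 13 alternatives, including without WT replicates 1 and 2 (-0.42, adjusted p = 0.0168). In bulk tissue, fewer neurons and less Tubb3 RNA per neuron cannot be told apart. Markers of medium spiny neurons (above) and of interneurons fell as well: 5 of 7 interneuron markers were called lower, with a sum of 101 and 118 CPM in R6/1 against 172 to 215 CPM in WT. The interneuron markers Pvalb and Sst were not called (log2 fold changes -1.07 and 0.26), and limma-voom called 4 lower. Map2, Mapt, Map1a and Map1b, also neuronal, had log2 fold changes of 0.14, 0.23, 0.03 and 0.22 and were not called. The part of these cell types in the fall of Tubb3 was not tested. Beta-tubulin genes share long stretches of coding sequence, and the sources used here do not state how reads with several matches were counted, so part of the count may belong to a relative.

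Gap43 (ENSMUSG00000047261), a protein kinase C substrate of growth cones and presynaptic endings, was the member that rose. Both R6/1 libraries had 180 CPM, against 135, 159 and 142 CPM in WT replicates 1 to 3. The R6/1 libraries were alike and lay above every WT library. The mean of 180 ± 0.193 CPM in R6/1 and 145 ± 12.0 CPM in WT gave a 1.24-fold rise, with a log2 fold change of 0.31 (SE 0.08, 95% interval 0.11 to 0.50, edgeR adjusted p = 0.0383). The authors' deposited table gives 0.32 with an adjusted p of 0.00438. The call for Gap43 was less stable than that for Tubb3. It was lost without R6/1 replicate 1 or 2 (edgeR adjusted p = 0.162 and 0.170), without WT replicate 1 or 3 (0.0949 and 0.111) and with choroid plexus markers as a covariate (0.123). Its log2 fold change stayed between 0.26 and 0.43 in the 13 alternatives.

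None of the 4 neurofilament genes was called by edgeR with all libraries, and Nefm alone had an unadjusted p below 0.05. DESeq2 called Nefm and limma-voom none. Nefm (medium subunit, ENSMUSG00000022054) was at 54.6 and 49.7 CPM in R6/1 replicates 1 and 2, against 57.8, 70.3 and 83.8 CPM in WT replicates 1 to 3. Both R6/1 libraries were below every WT library, but WT replicate 1 was close to them. The log2 fold change was -0.44 (SE 0.15, 95% interval -0.79 to -0.08), with an unadjusted p of 0.0221 and an edgeR adjusted p of 0.0776, so Nefm was not called. It was called lower without WT replicate 1 (-0.56, adjusted p = 0.0222), without WT replicates 1 and 2 (-0.68, adjusted p = 0.00517), without a filter on low counts (adjusted p = 0.0306) and by DESeq2 (adjusted p = 0.0442).

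Nefl (light subunit, ENSMUSG00000022055), on which the filament assembles, was at 297 and 359 CPM in R6/1 replicates 1 and 2. WT replicates 1 to 3 had 325, 362 and 464 CPM, so the groups overlapped and WT replicate 3 stood highest. Its log2 fold change was -0.23 (SE 0.16, 95% interval -0.59 to 0.14, edgeR adjusted p = 0.331). It was -0.07 without WT replicate 3 (adjusted p = 0.735) and -0.09 without R6/1 replicate 1 (adjusted p = 0.800). It was -0.50 without WT replicates 1 and 2, and -0.53 with the choroid plexus covariate, where Nefl was called lower (adjusted p = 0.0373). These settings are close to the same comparison, because the covariate mainly sets WT replicates 1 and 2 apart from the other libraries. Both rest mostly on WT replicate 3, the highest library for Nefl.

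Nefh (heavy subunit, ENSMUSG00000020396), whose long tail is the most phosphorylated of the subunits, was at 32.0 and 39.1 CPM in R6/1 replicates 1 and 2. WT replicates 1 to 3 had 22.0, 37.5 and 36.9 CPM, so WT replicate 1 was low and the other two WT libraries fell among the R6/1 values. A log2 fold change of 0.15 (SE 0.22, 95% interval -0.38 to 0.67, edgeR adjusted p = 0.663) leaves room for falls and rises alike. Ina (ENSMUSG00000034336) was at 47.4 and 36.6 CPM in R6/1 replicates 1 and 2, against 31.2, 44.5 and 38.7 CPM in WT replicates 1 to 3. The groups overlapped, with a log2 fold change of 0.14 (SE 0.17, 95% interval -0.25 to 0.54, adjusted p = 0.578). Ina was called higher in 1 of 13 alternatives, with cortical markers as a covariate (0.34, adjusted p = 0.0400), and Nefh in none.

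Summed over the 4 neurofilament genes, the level was 431 and 485 CPM in R6/1 replicates 1 and 2, against 436, 515 and 624 CPM in WT replicates 1 to 3. The groups overlapped. Markers of cortical projection neurons also varied between libraries of a group: their 11 genes summed to 199 and 136 CPM in R6/1 replicates 1 and 2 and to 136, 348 and 232 CPM in WT replicates 1 to 3, and 0 of 11 were called by edgeR, where 1 was lower at an unadjusted p below 0.05, DESeq2 called 1 lower and limma-voom 0. Slc17a7, which loads glutamate into vesicles in cortical neurons, was at 50.0 and 18.3 CPM in R6/1 replicates 1 and 2 and at 22.6, 136 and 81.9 CPM in WT replicates 1 to 3. WT replicate 1 was the lowest WT library for all 4 neurofilament genes and for the cortical sum. The highest WT library was replicate 2 for the cortical sum, Nefh and Ina, but replicate 3 for Nefl and Nefm. In R6/1, replicate 1 had the larger cortical sum, with more Nefm and Ina but less Nefl and Nefh than replicate 2. The part of cortical RNA in these values was not tested. With the cortical markers as a covariate the log2 fold changes of Nefl, Nefm, Nefh and Ina were -0.19, -0.31, 0.38 and 0.34.

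Map2 (ENSMUSG00000015222), the dendritic microtubule-associated protein, was the most abundant of the 10 genes in CPM. It was at 2360 and 2309 CPM in R6/1 replicates 1 and 2, against 1998, 2175 and 2200 CPM in WT replicates 1 to 3. Both R6/1 libraries were above every WT library by a small margin. Its log2 fold change was 0.14 (SE 0.07, 95% interval -0.02 to 0.29, edgeR adjusted p = 0.180), so a rise beyond 1.22-fold or a fall beyond 0.986 of the WT level lies outside the interval. It was called higher only with no normalization beyond the library total (0.25, adjusted p = 0.0267).

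Mapt (ENSMUSG00000018411, tau) was at 355 and 337 CPM in R6/1 replicates 1 and 2, against 279, 316 and 290 CPM in WT replicates 1 to 3. Both R6/1 libraries lay above every WT library. The log2 fold change was 0.23 (SE 0.08, 95% interval 0.05 to 0.41), with an unadjusted p of 0.0188 and an edgeR adjusted p of 0.0701, which missed the threshold. The authors' deposited table calls Mapt higher, with a log2 fold change of 0.24 and an adjusted p of 0.0179. DESeq2 on the same counts also called it (adjusted p = 0.0314), as did edgeR without WT replicate 2 (0.0207), with the cortical covariate (0.0326) and with no normalization beyond the library total (0.0156). Without R6/1 replicates 1 and 2 in turn the adjusted p was 0.295 and 0.180.

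Map1b (ENSMUSG00000052727), the member of the pair that prevails in growing neurons, was at 1689 and 1498 CPM in R6/1 replicates 1 and 2, against 1327, 1587 and 1194 CPM in WT replicates 1 to 3. WT replicate 2 lay between the R6/1 libraries. The log2 fold change was 0.22 (SE 0.12, 95% interval -0.07 to 0.50, edgeR adjusted p = 0.233). Leaving out WT replicate 2 gave 0.34 (adjusted p = 0.0242) and leaving out WT replicates 1 and 2 gave 0.42 (adjusted p = 0.00949), and Map1b was called higher in both settings. It was 0.13 without WT replicate 3 (adjusted p = 0.474) and 0.13 without R6/1 replicate 1 (adjusted p = 0.645).

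Map1a (ENSMUSG00000027254), its counterpart in mature neurons, was at 689 and 556 CPM in R6/1 replicates 1 and 2, against 544, 670 and 613 CPM in WT replicates 1 to 3. The groups overlapped, with a log2 fold change of 0.03 (SE 0.12, 95% interval -0.25 to 0.31, adjusted p = 0.872). Map1a and Nefh were called in 0 of 13 alternatives, and each had a sign that changed between alternatives.

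**Figure D2:**
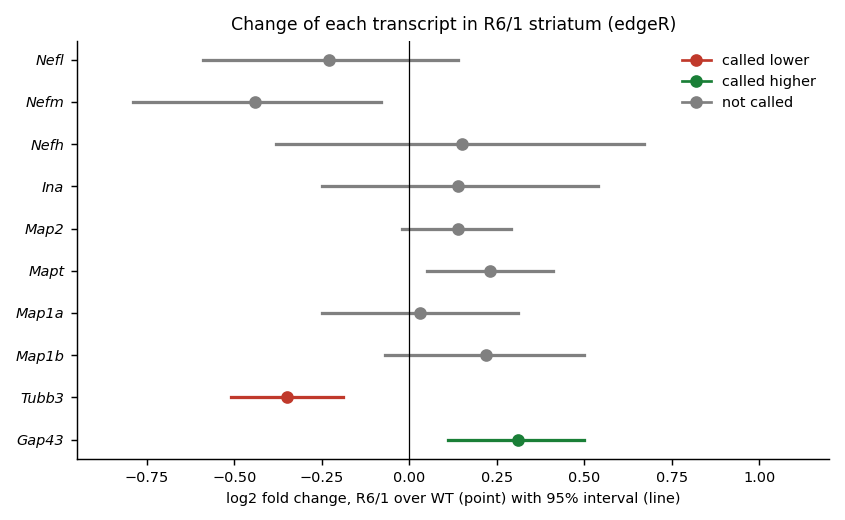
Log2 fold change of each transcript, R6/1 over WT (x axis), from edgeR over all 5 libraries, with points for the estimates and lines for 95% intervals. Tubb3 at -0.35 was called lower and Gap43 at 0.31 higher, while the intervals of Nefm and Mapt also leave out 0 before adjustment for the 17202 genes tested.

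Overlapping genes limit some of these values. In GENCODE M21, exons of Nefl and Nefm overlap on opposite strands, as do exons of Ina and Nt5c2, of Map1a and Ppip5k1, and of Map2 and the antisense gene Gm10558. The libraries were strand-specific, but whether strand was used in counting is not stated in the labels, so reads of these partners cannot be told apart. Gm10558 had at most 2 counts in any library. Nt5c2 had a log2 fold change of 0.11 (adjusted p = 0.285) and Ppip5k1 one of 0.28 (adjusted p = 0.0550), neither called.

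Levels of different genes were compared as CPM per kb of exon, with the exon union of GENCODE M21 as length. In R6/1 the order was Map2 at 142 ± 2.20, Gap43 at 118 ± 0.127, Map1b at 101 ± 8.52, Nefl at 97.1 ± 13.0 and Tubb3 at 94.9 ± 2.50 CPM per kb (SD, n = 2), followed by Map1a at 51.2 ± 7.73 and Mapt at 45.9 ± 1.70. The same order in WT was Map2 at 129 ± 6.68, Tubb3 at 121 ± 5.41, Nefl at 114 ± 21.4, Gap43 at 95.4 ± 7.87 and Map1b at 86.4 ± 12.6 (SD, n = 3), then Map1a at 50.1 ± 5.18 and Mapt at 39.2 ± 2.56. Ina, Nefm and Nefh were lowest, at 8.91 to 13.0 CPM per kb in R6/1 and 8.04 to 12.2 in WT. Neighbours in these orders mostly lay within each other's spread: in R6/1, Map1b, Nefl and Tubb3 overlapped, as did Map1a and Mapt, and in WT, Nefl overlapped with Map2, Tubb3 and Gap43, Map2 with Tubb3, and Gap43 with Map1b. With these lengths Tubb3 stood below Gap43 in each R6/1 library and above it in each WT library.

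The order depends on the length used. The lengths implied by the authors' columns per kb are 1.70 kb for Map2 and 1.02 kb for Mapt, against exon unions of 16.4 and 7.53 kb. These genes have many short annotated transcripts. Over all genes, the ratio of the median transcript length in GENCODE M21 to the authors' length had a median of 1. The lengths did not match for every gene. The median transcript had 1420 bases for Map2 and 805 for Mapt, against authors' lengths of 1695 and 1024 bases. With the authors' lengths Map2 came to 1380 CPM per kb in R6/1 and 1250 in WT, and Mapt to 337 in R6/1 and 288 in WT, which places Mapt next after Map2 in both groups. Gap43 came to 165 CPM per kb in both R6/1 libraries and to 124, 146 and 130 in WT replicates 1 to 3, so on this scale it stood above Tubb3 in all 5 libraries (93.2 and 96.7 in R6/1, 119, 117 and 127 in WT). Differences between R6/1 and WT do not depend on the length.

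Ratios between members of the same library do not depend on scaling between libraries. Gap43 to Tubb3, in CPM per kb, was 1.27 and 1.22 in R6/1 replicates 1 and 2, against 0.747, 0.890 and 0.733 in WT replicates 1 to 3. The groups did not overlap, and the log2 ratio was 0.66 higher in R6/1 (0.31 ± 0.04 in R6/1 and -0.35 ± 0.15 in WT, SD). The exact two-sided permutation test gave p = 0.200, the smallest that 10 regroupings of 3 against 2 libraries allow, and an adjusted p of 0.300 over the 6 ratios tested. This ratio sets a gene that rose against one that fell, so it carries no evidence beyond theirs.

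Within the neurofilaments, Nefh to Nefl was 0.0912 and 0.0922 in R6/1 replicates 1 and 2, against 0.0573, 0.0875 and 0.0673 in WT replicates 1 to 3. The groups did not overlap, with a log2 ratio 0.40 higher in R6/1 (exact permutation p = 0.200, adjusted p = 0.300). Nefm to Nefl was 0.107 and 0.0809 in R6/1 and 0.104, 0.113 and 0.105 in WT, where R6/1 replicate 1 sat among the WT libraries and R6/1 replicate 2 below them (exact permutation p = 0.600, adjusted p = 0.600). Ina to Nefl was 0.166 and 0.106 in R6/1 and 0.100, 0.128 and 0.0870 in WT, with overlap (exact permutation p = 0.400, adjusted p = 0.480). Nefl supplied 73.3% and 78.2% of the neurofilament level per kb in R6/1 replicates 1 and 2, and 79.3%, 75.2% and 79.4% in WT replicates 1 to 3.

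Map1a to Map1b was 0.532 and 0.484 in R6/1 replicates 1 and 2, against 0.534, 0.550 and 0.669 in WT replicates 1 to 3. R6/1 replicate 1 and WT replicate 1 nearly touched, and the log2 ratio was lower in R6/1 by a difference of -0.20 (exact permutation p = 0.200, adjusted p = 0.300). Map2 to Mapt was 3.05 and 3.14 in R6/1 and 3.29, 3.15 and 3.47 in WT, a log2 difference of -0.09 with the same p. None of the 6 ratios could pass the threshold in this design.

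**Figure D3:**
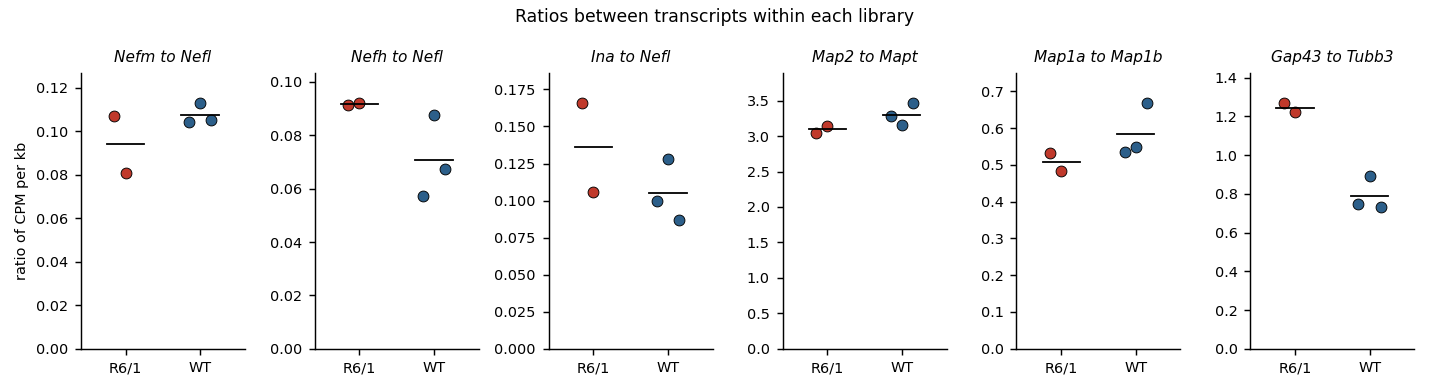
Ratio of CPM per kb between pairs of transcripts within each library (y axes, from 0), for R6/1 (red) and WT (blue), with points for libraries and lines for group means. Gap43 to Tubb3 separates the groups by the widest gap, from 1.22 in the lower R6/1 library to 0.890 in the highest WT library.

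Other cytoskeletal genes were read from 7 lists with 117 entries, all tested. Together, 18 were called lower and 20 higher, and 18.2% to 50.0% of a list was called, against 22.6% of all genes. Without R6/1 replicates 1 and 2 in turn the calls came to 6 and 7 lower and 1 and 7 higher, and without WT replicates 1 and 3 in turn to 10 and 8 higher. Over all genes, higher calls went from 1672 to 280 and 312 without R6/1 replicates 1 and 2. They went to 935 and 835 without WT replicates 1 and 3. Scaling and covariates moved the rises: 42 were called with no normalization beyond the library total, 33 with the cortical covariate and 6 with the choroid plexus covariate. Higher calls over all genes numbered 3237, 1625 and 616 in these settings. Of the genes named below, Tubd1, Marcks, Stmn2, Gfap, Vim, Cdk5r2, Csnk1d, Add2, Ank3 and Spnb4 were not called with the choroid plexus covariate. Among the other tubulins, 2 of 15 fell, 1 rose and 12 were not called, with a median log2 fold change of -0.06. Tuba4a, an alpha-tubulin prominent in brain, was at 155 and 180 CPM in R6/1 replicates 1 and 2, against 232, 280 and 280 CPM in WT replicates 1 to 3 (log2 fold change -0.66, SE 0.11, edgeR adjusted p = 0.00730). The beta-tubulin Tubb2b fell 1.48-fold (adjusted p = 0.0357), and the centriolar delta-tubulin Tubd1 rose 1.74-fold (adjusted p = 0.0417). Tuba1a and Tubb4a, whose groups overlapped, had log2 fold changes of 0.02 and -0.06 and were picked with their values known. The call for Tuba4a was lost without R6/1 replicate 1 (adjusted p = 0.0705). Those for Tubb2b and Tubd1 were lost without R6/1 replicate 1 or 2 or WT replicate 3, where 1, 1 and 1 tubulins were called lower and 0, 0 and 0 higher, and Tubd1 also without WT replicate 1. Tubb2b was also not called with no normalization beyond the library total or with the cortical covariate.

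Of 28 other microtubule-associated and plus-end proteins, 3 fell, 5 rose and 20 were not called, with a median of 0.15. Dclk1, a doublecortin-like kinase that binds microtubules, was at 470 and 445 CPM in R6/1 replicates 1 and 2, against 1209, 920 and 1240 CPM in WT replicates 1 to 3. Its 2.45-fold fall (log2 fold change -1.30, SE 0.13, edgeR adjusted p = 0.00113) exceeded the change of each of the 10 cytoskeletal genes above, and it was called in 13 of 13 alternatives. Map6d1, a relative of the microtubule-stabilizing protein Map6, fell 1.52-fold (adjusted p = 0.00459), and Mtap7d2 (the file's symbol for Map7d2), which recruits kinesin to microtubules, rose 1.37-fold (adjusted p = 0.00518). Both calls were lost without R6/1 replicate 1 (adjusted p = 0.0534 and 0.0548). In this list 1 gene fell without R6/1 replicate 1 and 5 without WT replicate 2. Rises numbered 0 and 2 without R6/1 replicates 1 and 2, and 1, 10 and 1 without WT replicates 1, 2 and 3.

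Of 8 stathmins and growth-associated proteins, 1 fell, 3 rose and 4 were not called, with a median of 0.41. Marcksl1, an actin-binding protein kinase C substrate, was at 32.9 and 26.4 CPM in R6/1 replicates 1 and 2, against 12.5, 15.6 and 11.6 CPM in WT replicates 1 to 3. It rose 2.24-fold (log2 fold change 1.16, SE 0.16, edgeR adjusted p = 0.00317) and was called in 13 of 13 alternatives. Its relative Marcks rose 1.46-fold (adjusted p = 0.00972), and the neuronal stathmin Stmn4, a tubulin-binding protein, fell 1.56-fold (adjusted p = 0.0250). Stmn2, a growth cone stathmin that was chosen after its values were seen, was the other gene that rose (log2 fold change 1.10, SE 0.31, adjusted p = 0.0442), but DESeq2 did not call it (adjusted p = 0.0812). Basp1, a growth cone protein similar in role to Gap43 and also chosen after its values were seen, had a log2 fold change of 0.17 with overlap of the groups (adjusted p = 0.641). Calls were lost without R6/1 replicate 1 for Marcks, Stmn4 and Stmn2 (adjusted p = 0.0843, 0.122 and 0.217), leaving 1 rise and 0 falls. Without R6/1 replicate 2 those for Stmn4 and Stmn2 were lost (0.146 and 0.117), without WT replicate 3 that for Stmn2 (0.0927), and without WT replicate 2 this list had 5 rises.

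Of 11 other intermediate filaments and cytolinkers, 2 rose, 0 fell and 9 were not called, with a median of 0.02. Gfap, the filament of astrocytes, was at 117 and 90.9 CPM in R6/1 replicates 1 and 2, against 71.5, 50.7 and 68.6 CPM in WT replicates 1 to 3 (log2 fold change 0.71, SE 0.17, edgeR adjusted p = 0.0233). Vim, the filament of astrocytes and vascular cells, rose 1.54-fold (adjusted p = 0.0385). The astrocyte markers did not rise with them: of 7, 3 were called lower and 0 higher, and their sum was 3064 and 2926 CPM in R6/1 against 4149 to 4401 CPM in WT. Neither filament gene was called without R6/1 replicate 1 (adjusted p = 0.161 for Gfap and 0.245 for Vim), and Vim was also lost without R6/1 replicate 2 (0.0524) or WT replicate 3 (0.0872), without WT replicates 1 and 2 together (0.0518) and with the cortical covariate (0.0700). In edgeR 0 of this list were called lower (2 at an unadjusted p below 0.05), DESeq2 and limma-voom called 0 and 0 lower, and 1 was lower without WT replicate 2.

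Of 22 enzymes that modify, sever or fold tubulin, 5 fell, 6 rose and 11 were not called, with a median of 0.10. Ttll11, a tubulin polyglutamylase, was at 23.1 and 24.8 CPM in R6/1 replicates 1 and 2, against 42.5, 45.2 and 44.9 CPM in WT replicates 1 to 3. It fell 1.84-fold (log2 fold change -0.88, SE 0.08, edgeR adjusted p = 0.000833) and was called in 13 of 13 alternatives. Agtpbp1, which removes glutamate residues from tubulin, fell 1.37-fold (adjusted p = 0.00453), and Sirt2, a tubulin deacetylase abundant in oligodendrocytes, rose 1.39-fold (adjusted p = 0.00647). Oligodendrocyte markers summed to 4909 and 4719 CPM in R6/1 and 4873 to 6802 CPM in WT, with 3 of 8 called lower. The calls for Agtpbp1 and Sirt2 were lost without R6/1 replicate 1 (adjusted p = 0.0588 and 0.0696). Without R6/1 replicates 1 and 2 in turn, 1 and 2 of these genes fell and 0 and 2 rose. Without WT replicate 1, 3 rose, and without WT replicate 3, 3 fell and 3 rose.

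Of 21 kinases, phosphatases and cofactors that act on tau, 4 fell, 2 rose and 15 were not called, with a median of -0.02. Ppp2r2a, a regulatory subunit of protein phosphatase 2A, had 62.6 CPM in both R6/1 libraries, against 139, 137 and 148 CPM in WT replicates 1 to 3. It fell 2.26-fold (log2 fold change -1.18, SE 0.07, edgeR adjusted p = 0.000182) and was called in 13 of 13 alternatives, while Ppp2r2b, the brain-enriched relative, averaged 91.6 CPM in R6/1 and in WT (chosen after its values were seen). Cdk5r2, an activator of the kinase Cdk5, fell 1.49-fold (adjusted p = 0.00782), and the casein kinase Csnk1d rose 1.25-fold (adjusted p = 0.0142). The call for Cdk5r2 was lost without R6/1 replicate 2 (adjusted p = 0.0763), and that for Csnk1d without R6/1 replicate 1 or 2 (0.0990 and 0.0916) or without WT replicates 1 and 2 together (0.0807). In this list 2 and 1 genes fell without R6/1 replicates 1 and 2, where 0 and 0 rose. Rises numbered 1, 5 and 1 without WT replicates 1, 2 and 3.

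Of 12 spectrins, ankyrins, adducins and partners, which form the lattice under the neuronal membrane, 3 fell, 1 rose and 8 were not called, with a median of 0.01. Spnb3 (beta-III spectrin) was at 671 and 645 CPM in R6/1 replicates 1 and 2, against 1045, 985 and 1074 CPM in WT replicates 1 to 3, a 1.57-fold fall (log2 fold change -0.65, SE 0.07, edgeR adjusted p = 0.00119) called in 13 of 13 alternatives. Add2, which caps actin, fell 1.28-fold (adjusted p = 0.0141), and Ank3, the ankyrin of the axon initial segment, fell 1.25-fold (adjusted p = 0.0176). With no normalization beyond the library total Ank3 was not called (-0.20, adjusted p = 0.0622). Without R6/1 replicates 1 and 2 in turn, 1 and 1 of these genes fell and 0 and 0 rose, with adjusted p of 0.0887 and 0.107 for Add2 and 0.0594 and 0.158 for Ank3. Spnb4 (the beta-spectrin of axon initial segments and nodes, chosen after its values were seen) was the gene that rose, with a log2 fold change of 0.31 (adjusted p = 0.0194), and its call was also lost without WT replicate 1 or 3.

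**Figure D4:**
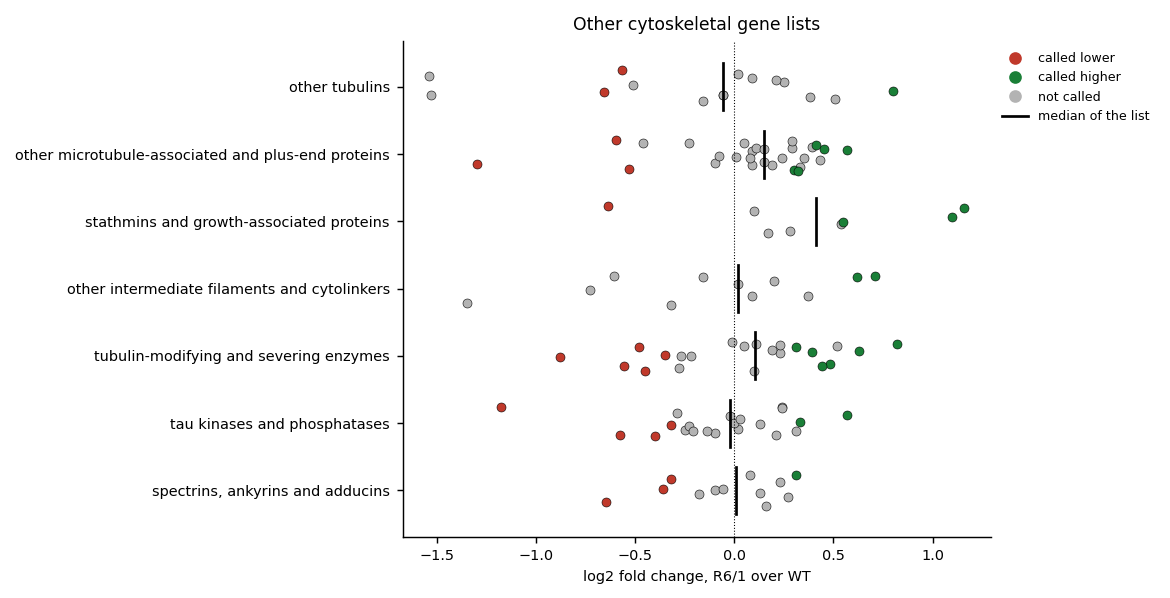
Log2 fold change, R6/1 over WT (x axis), of 117 genes in 7 cytoskeletal lists (rows), with red for called lower, green for called higher, grey for not called and black lines for list medians. Medians lie between -0.06 and 0.41, and calls in both directions occur in each list except the other intermediate filaments and cytolinkers.

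Across settings, Tubb3 and Gap43 kept their signs in all 13 alternatives and the other members were called in 0 to 4 of them. By edgeR, members called numbered 0 without R6/1 replicate 1 or 2 (2 and 3 at an unadjusted p below 0.05), 1 without WT replicate 3, 2 without WT replicate 1 and 4 without WT replicate 2, where the share of all genes called was 6.5%, 6.13%, 14.6%, 15.5% and 28.1%. Without WT replicates 1 and 2 together, 5 members were called (Nefl, Nefm and Tubb3 lower, Map1b and Gap43 higher), where 19.4% of all genes were. With 1 WT library left in that setting, its spread is taken to equal that of R6/1.

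**Figure D5:**
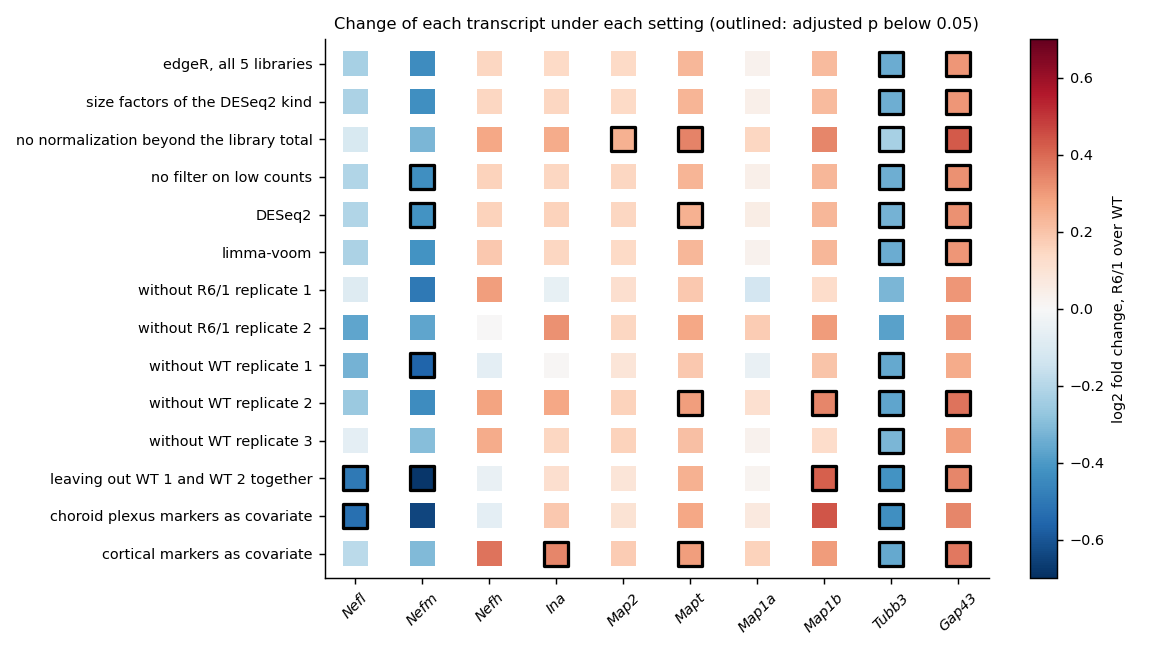
Log2 fold change, R6/1 over WT (colour scale), of each transcript (columns) under each setting (rows), with a black outline where the adjusted p is below 0.05. The Tubb3 and Gap43 columns keep their colour throughout, Nefl and Nefm deepen without WT replicates 1 and 2, and Nefh, Ina and Map1a change sign.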

How the data were processed

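Striatal total RNA was depleted of ribosomal RNA and made into strand-specific libraries, per the labels' protocols. The authors deposited raw read counts for each Ensembl gene and each of 5 libraries. According to the submitters' processing notes, the tools were CASAVA 1.8.2, TopHat 1.4.1, HTSeq 0.5.4p3, DESeq2 1.0.19, with build mm9. Per the file headers, the authors also deposited a normalized signal, which equals the counts over a library's size factor, and that signal per kb. These columns served only to read the lengths the authors used. Log2 fold changes with raw and adjusted p-values that the authors deposited are quoted as theirs.

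The main test on the counts was edgeR's quasi-likelihood test (version 4.0.16, R 4.3.3), with TMM normalization, filterByExpr (minimum count 10, minimum total 15) and genotype alone as design. Calls are at a Benjamini-Hochberg adjusted p below 0.05 over 17202 genes. CPM are TMM-normalized, SE is implied by the F statistic, and intervals are at 95%. The fit was also run on simulated data, but with changes larger than those of Tubb3 and Gap43, so that run does not bear on their calls. The alternatives were DESeq2 1.42.0, limma-voom (limma 3.58.1), other scalings, no filter, covariates and left-out libraries. Ratios were compared by exact permutation (scipy 1.17.1). The smallest count of any member was 491, a counting error of 4.51%, and PCR copies are not independent molecules. Between libraries of 1 genotype the chi-square per gene was 10.6 to 19.1, well above sampling noise. The members and lists were chosen with earlier results of these data known. Named from each other list are the 3 called genes of lowest adjusted p. Of the list genes named by symbol, 1 interneuron marker was not matched. Promoters are RefSeq sequence on GRCm38.p6 and lengths are from GENCODE M21, neither on the authors' build, so no gene coordinates are given from the files.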

Additional observations from a re-analysis of the deposited data

How the results depend on the processing

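With 1 library left out in turn, all genes called numbered 1088 to 4853 (776 to 2576 lower and 280 to 2277 higher) against 3882, and members called 0 to 4 (0 to 2 lower and 0 to 3 higher) against 2. Fewer libraries enter those fits. No normalization beyond the library total gave 3237 higher genes and 4 members called, 3 of them higher. DESeq2 called 4 members, 2 lower and 2 higher. The share of all genes called was 28.7% with no normalization beyond the library total and 16.4% with DESeq2. Without a filter on low counts 2 members were lower, with cortical markers as covariate 4 were called and 3 were higher, and leaving out WT replicates 1 and 2 gave 5 calls, 3 lower and 2 higher. Choroid plexus markers as covariate gave 1832 genes (1216 lower, 616 higher) and 2 lower and 0 higher members by edgeR (3 and 3 at an unadjusted p below 0.05). All genes called made up 17.2% without a filter, 21.5% with the cortical covariate and 10.6% with the choroid plexus covariate. The cause was not tested.

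Signs turned for Nefh with WT replicates 1 and 2 left out (-0.05) and with the choroid plexus covariate (-0.07). With 1 library left out Nefh ranged from -0.07 to 0.29, Ina from -0.06 to 0.32 and Map1a from -0.13 to 0.18. Length is a constant within each ratio, so it cancels in the 6 ratio differences and could not move them. Leaving out 1 library did move some of them. Nefm to Nefl was -0.41 without R6/1 replicate 1 and about 0 without R6/1 replicate 2, against -0.21. Ina to Nefl was 0.03 without R6/1 replicate 1 and 0.68 without R6/1 replicate 2, against 0.36, and 0.23 without WT replicate 3. Map1a to Map1b was -0.13 without R6/1 replicate 2 and -0.10 without WT replicate 3, against -0.20, Nefh to Nefl 0.26 without WT replicate 1, against 0.40, and Map2 to Mapt -0.06 without WT replicate 3, against -0.09. Without WT replicates 1 and 2 together Ina to Nefl was 0.61, Map1a to Map1b -0.40 and Map2 to Mapt -0.17. No paired analysis was possible because the labels carry no replicate number shared between R6/1 and WT. With 2 R6/1 libraries, the 95% intervals of 6 members (Nefl, Nefh, Ina, Map2, Map1a and Map1b) include 0.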
